A study of Mus musculus with 2 samples.

Results

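Primary granules are the first storage granules made by developing neutrophils, and the 10 genes described here encode their main enzymes, the proteoglycan that packs them, and inhibitors of proteases. They are Mpo, Elane, Prtn3, Ctsg, Prss57, Srgn, Cst7, Serpinb1a, Slpi and Cstb, 10 of 23248 genes listed in the data. The genes were chosen by name after earlier results of these same data were known, so their levels and ratios are a description and carry no test. RNA sequencing compared splenic regulatory T (Treg) cells of a leukemia group, with acute myeloid leukemia, and a healthy group, and 1 library stands for each. Mice of both groups were 6 to 8 weeks old and carried the Foxp3tm3(DTR/GFP)Ayr allele on a B6.129(Cg) background. The allele makes the locus of Foxp3, which encodes the defining transcription factor of Treg cells, also drive a diphtheria toxin receptor and green fluorescent protein (GFP). The leukemia host received 800000 leukemia cells with no irradiation, and its CD4+FOXP3-GFP+ cells were sorted at day 18. The healthy mice were injected with phosphate-buffered saline (PBS). Leukemia mice survived for 30 to 40 days. The sources used here do not give the origin or driver mutation of the leukemia cells, nor whether cells of several mice were pooled. Hosts that are not irradiated keep their own blood formation.

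In bone marrow, promyelocytes make primary granule proteins for a short stage and then stop, while the granules stay in the mature neutrophil. Neutrophil elastase, proteinase 3 and cathepsin G are serine proteases that are stored active, so the cell also makes inhibitors that act in its cytoplasm or after secretion. Acute myeloid leukemia cells that resemble progenitors often express myeloperoxidase, which is used as a diagnostic marker. Treg cells are not known as a source of these enzymes, although lymphocytes do express serglycin and some of the inhibitors.

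Levels are given in FPKM, the fragments per kilobase of transcript per 1000000 fragments, which allows genes of different length to be compared. The libraries held 8929601 and 8897162 estimated reads for the healthy and the leukemia mice. The log2 ratio is log2((FPKM leukemia + 1) / (FPKM healthy + 1)), which makes differences between low values look smaller. A gene counts as 2-fold higher at a log2 ratio of 1 or more and as 2-fold lower at -1 or less, among the 13717 genes at 1 FPKM or more in a library. A gene that passes this filter through only 1 library is higher there by that rule. Counts of called genes thus partly follow from the filter. Intervals of a read ratio are exact (Clopper-Pearson) 95% intervals, and they cover counting error between these 2 libraries only. No value has a spread over mice. The sort markers were present in both libraries: Foxp3 stood at 104 and 62.7 FPKM and Cd4 at 267 and 184 FPKM in the healthy and the leukemia library. All 10 Treg markers were listed in both, with summed levels of 1173 and 825 FPKM.

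All 10 genes reached 1 FPKM in a library, and 7 of them were 2-fold higher in leukemia: Mpo, Elane, Prtn3, Ctsg, Prss57, Serpinb1a and Slpi. Among these, Mpo, Prtn3, Ctsg and Prss57 were under 1 FPKM in healthy and passed the filter only through the leukemia library. Of all genes, 6.55% were 2-fold higher, and this share is given beside the count although the choice of the genes used the same contrast. The other members, Srgn, Cst7 and Cstb, lay under 2-fold, and no member was 2-fold lower, against 1.95% of all genes. In bulk RNA, more cells of a type and more RNA per cell cannot be told apart. The plot of levels shows the enzymes and Serpinb1a low in the healthy library, Srgn, Cst7 and Cstb already high there, and Slpi between them.

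**Figure D1:**
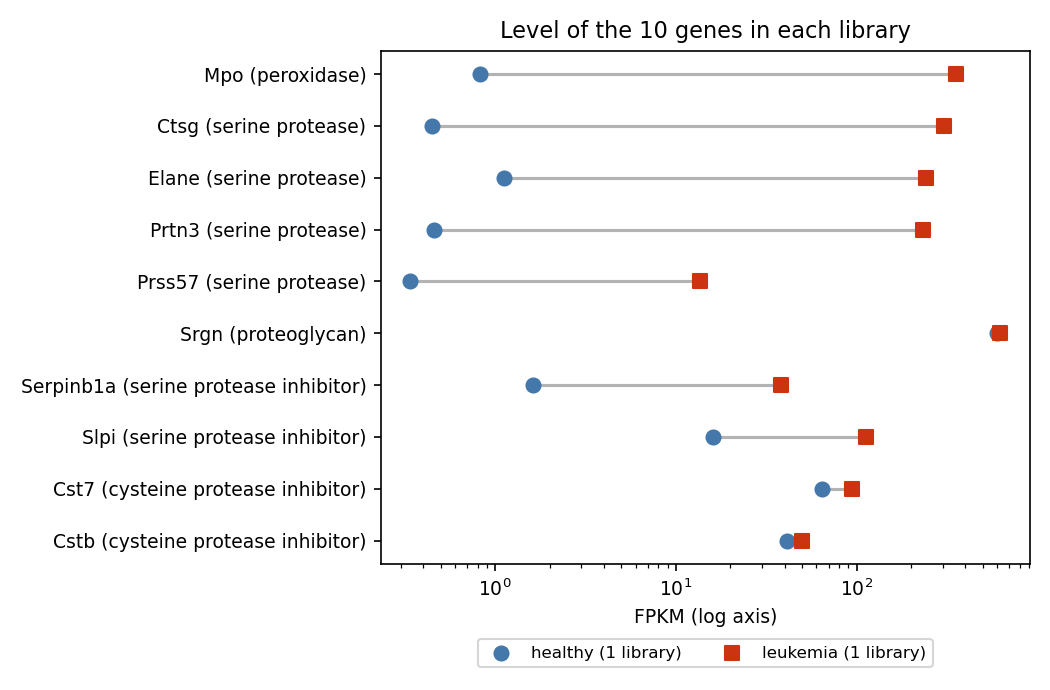
FPKM of each of the 10 genes (log axis) in the healthy library (circle) and the leukemia library (square), 1 library per group, grouped by the role of the protein. The enzymes start between 0.34 and 1.12 FPKM and end between 13.5 and 357 FPKM, while Srgn stands near 600 FPKM in both libraries.

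Mpo, encoding myeloperoxidase, the heme enzyme that turns hydrogen peroxide and chloride into hypochlorous acid, stood at 0.83 FPKM in the healthy library (17 reads) and at 357 FPKM in the leukemia library (7327 reads). The read ratio was 433 (270 to 743). Mpo thus held 0.0824% of all reads of the leukemia library, and its level per length was 5.69 times that of Foxp3 there, against 0.00796 times in the healthy library.

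Ctsg, which encodes cathepsin G, a protease of chymotrypsin-like specificity, was listed at 0.45 FPKM on 4 healthy reads and at 304 FPKM on 2673 leukemia reads. Its read ratio of 671 had a wide interval (262 to 2463), because of the 4 reads. Elane, encoding neutrophil elastase, was at 1.12 FPKM (9 reads) in healthy and 242 FPKM (1945 reads) in leukemia, a read ratio of 217 (114 to 475). Among the 4 main enzymes, Elane had the highest healthy level and hence the lowest ratio, but the counting intervals of these ratios overlap.

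Prtn3, for proteinase 3, the close relative of elastase, was at 0.46 FPKM (4 reads) in healthy and 234 FPKM (2011 reads) in leukemia. The read ratio was 505 (197 to 1854). By log2 ratio Ctsg (7.72), Mpo (7.61), Prtn3 (7.33) and Elane (6.84) ranked 1, 2, 3 and 4 of the 13717 genes. Together they held 34 reads in the healthy library and 13956 in the leukemia library, or 0.000381% and 0.157% of the total.

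Prss57, encoding neutrophil serine protease 4, a less abundant primary granule protease, stood apart from these genes. It was at 0.34 FPKM (8 reads) in healthy and at 13.5 FPKM (233 reads) in leukemia, a log2 ratio of 3.44. The read ratio was 29.2 (14.6 to 68.5), and its interval lies below those of the other enzymes. The ratio of its FPKM values was larger, 39.8, because the gene length that RSEM weights by isoform was 2648 bases in healthy and 1932 bases in leukemia. In the RefSeq annotation Prss57 overlaps its neighbours Palm and Fstl3, and without a stated strand setting reads of the overlap cannot be told apart. Mpo, Srgn and Slpi each overlap a noncoding or predicted gene there (Gm34064, Gm51804 and Mir7678).

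**Figure D2:**
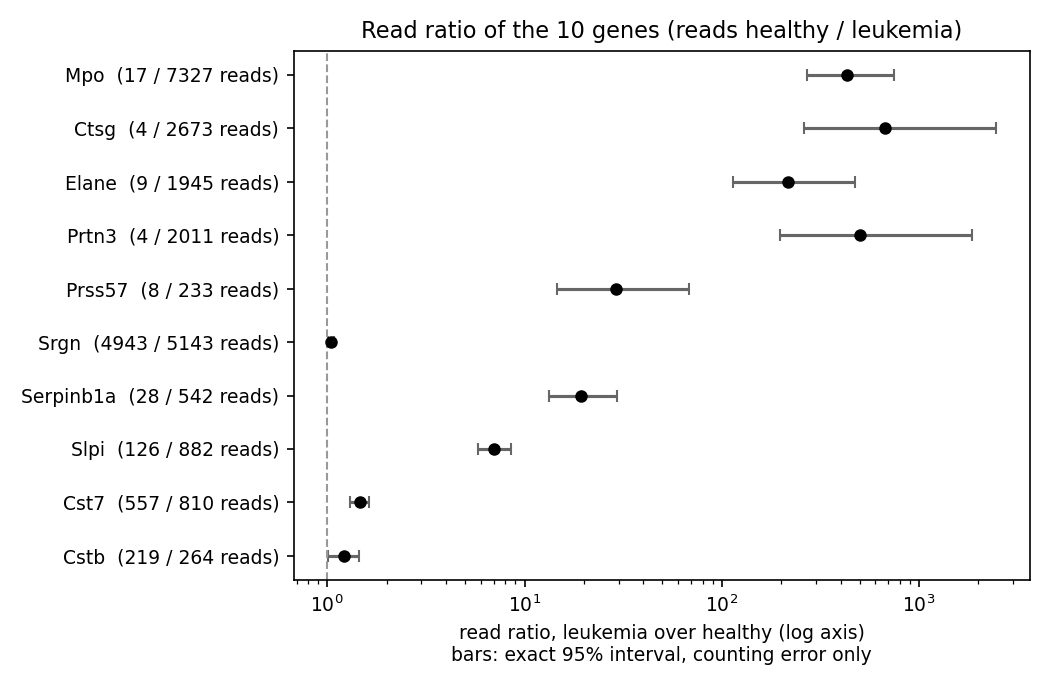
Read ratio of each gene, leukemia over healthy (log axis), each count divided by its library total, with exact 95% intervals that cover counting error only; read numbers stand beside the names and the dashed line marks equality. The intervals of Mpo, Ctsg, Elane and Prtn3 start at 114 or more, and that of Srgn runs from 1.00 to 1.09.

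The order of levels in the leukemia library, per length, was Srgn, Mpo, Ctsg, Elane, Prtn3, Slpi, Cst7, Cstb, Serpinb1a and Prss57. In that order the Poisson counting intervals of Elane (232 to 253 FPKM) and Prtn3 (224 to 244 FPKM) overlap, and those of Mpo (349 to 365 FPKM) and Ctsg (293 to 316 FPKM) do not. In the healthy library the order was Srgn, Cst7, Cstb, Slpi, Serpinb1a, Elane, Mpo, Prtn3, Ctsg and Prss57. There the intervals of the 5 enzymes overlap one another, on 4 to 17 reads each. The spread between mice is unknown, so these intervals set only a lower limit on the error of each order.

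The make-up of the few healthy reads of the 4 main enzymes could not be told from that of the leukemia reads, within wide counting error. Mpo took 17 of the 34 healthy reads (exact Clopper-Pearson 95% interval of the share 32.4 to 67.6%) and 52.5% (51.7 to 53.3%) of the 13956 leukemia reads. Elane took 26.5% (12.9 to 44.4%) and 13.9% (13.4 to 14.5%). Prtn3 took 11.8% (3.30 to 27.5%) and 14.4% (13.8 to 15.0%), and Ctsg 11.8% (3.30 to 27.5%) and 19.2% (18.5 to 19.8%). Each healthy interval holds the leukemia share of the same gene, but on 34 reads the intervals are too wide to show likeness.

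The promoters of these 4 genes are shown because the genes have the highest ratios of all and are known targets of a small group of myeloid factors. RefSeq promoter sequences (build GRCm38.p6) were found for 7 of the 10 members: Mpo, Elane, Prtn3, Ctsg, Srgn, Cst7 and Slpi, with 2 start sites for Srgn. The 250 bases before each start were searched on both strands for GAGGAA (core of PU.1 sites), TAACNG (MYB), TTNNGNAA (C/EBP), TGNGGT (RUNX) and, for the box near many starts, TATAAA. No match overlaps another in the 4 windows printed. They lie at chr11:87793534-87793783 (plus strand, Mpo), chr10:79886062-79886311 (plus strand, Elane), chr10:79879417-79879666 (plus strand, Prtn3) and chr14:56102575-56102824 (minus strand, Ctsg). Capitals mark the matches of the first 4 motifs, and each sequence ends just before the start of transcription.
Mpo: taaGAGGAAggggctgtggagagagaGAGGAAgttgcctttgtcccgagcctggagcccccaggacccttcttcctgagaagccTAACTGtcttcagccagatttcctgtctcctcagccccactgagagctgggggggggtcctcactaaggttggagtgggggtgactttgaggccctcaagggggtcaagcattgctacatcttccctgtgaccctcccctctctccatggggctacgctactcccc
Elane: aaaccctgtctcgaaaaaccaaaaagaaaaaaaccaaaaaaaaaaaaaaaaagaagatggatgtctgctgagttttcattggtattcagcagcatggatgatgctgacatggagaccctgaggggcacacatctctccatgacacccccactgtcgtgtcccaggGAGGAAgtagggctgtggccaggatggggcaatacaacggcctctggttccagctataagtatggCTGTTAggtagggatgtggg
Prtn3: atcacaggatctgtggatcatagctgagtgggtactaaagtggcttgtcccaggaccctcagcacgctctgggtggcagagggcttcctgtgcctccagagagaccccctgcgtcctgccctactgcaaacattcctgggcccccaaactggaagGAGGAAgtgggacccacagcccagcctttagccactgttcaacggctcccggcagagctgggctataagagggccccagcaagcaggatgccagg
Ctsg: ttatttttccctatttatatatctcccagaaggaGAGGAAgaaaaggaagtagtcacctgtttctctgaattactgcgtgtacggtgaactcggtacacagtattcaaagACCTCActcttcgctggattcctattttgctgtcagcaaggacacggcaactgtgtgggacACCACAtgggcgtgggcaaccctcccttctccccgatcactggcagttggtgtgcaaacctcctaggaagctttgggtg

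Each of the 4 windows holds GAGGAA, which begins 247 and 224 bases before the start in Mpo, 85 in Elane, 95 in Prtn3 and 216 in Ctsg. Of 32851 promoter windows of this length, 23.3% hold it on either strand. TAACNG or its reverse complement CNGTTA was matched in Mpo and Elane, and in 19.8% of all windows. TGNGGT, or ACCNCA on the other strand, was matched 2 times in Ctsg and in 40.1% of all windows. TTNNGNAA had no match in these 4 windows, against 36.8% of all. TATAAA was matched in Ctsg on the other strand, 237 bases before the start, and in 12.4% of all windows. The windows of Srgn, Cst7 and Slpi had no GAGGAA on either strand, and the C/EBP motif was matched in Cst7, in Slpi and at 1 of the 2 starts of Srgn. A match of letters is a description and does not show that a factor binds there.

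Srgn encodes serglycin, the proteoglycan whose sugar chains hold granule proteases and which T cells, mast cells and platelets make as well. It was the highest member in both libraries, at 600 FPKM (4943 reads) in healthy and 624 FPKM (5143 reads) in leukemia. The log2 ratio was 0.06 and the read ratio 1.04 (1.00 to 1.09). Its direction is not fixed by these data, since the log2 ratio is -0.02 when FPKM is rescaled to TPM and 0.47 when centred on T cell markers. Srgn stood at 210 times the summed level of Mpo, Elane, Prtn3 and Ctsg in the healthy library and at 0.549 times that sum in leukemia.

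Among enzymes that build the sugar chains of such proteoglycans, 2 of the 22 at 1 FPKM or more were 2-fold higher and none lower. Of all genes, 6.55% were 2-fold higher and 1.95% lower. The median log2 ratio of the 22 was -0.02, against 0.02 for all genes. The 2 higher ones were Chsy1, a chondroitin synthase (4.82 and 15.4 FPKM, 1.49), and Papss2, which makes the sulfate donor (1.27 and 4.05 FPKM, 1.15). Csgalnact2, which starts chondroitin chains, was at 5.15 and 10.1 FPKM (0.85), and the sulfotransferase gene Chst12 was at 18.1 and 33.2 FPKM (0.84).

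The serine protease inhibitors were both higher in the leukemia library, by less than the 4 main enzymes. Serpinb1a, which encodes a cytoplasmic serpin that inactivates elastase, proteinase 3 and cathepsin G, was at 1.62 FPKM (28 reads) in healthy and 38.3 FPKM (542 reads) in leukemia. Its read ratio was 19.4 (13.3 to 29.5) and its log2 ratio 3.91. The FPKM ratio was 23.7, since the weighted gene length was 1931 bases in healthy and 1593 in leukemia. Reads of Serpinb1a may be split with near-identical copies. Summed with Serpinb1b, they came to 34 and 543, and Serpinb1c was not listed in either table.

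Slpi, for secretory leukocyte protease inhibitor, a small secreted protein that blocks elastase and cathepsin G, was at 16.1 FPKM (126 reads) in healthy and 113 FPKM (882 reads) in leukemia. The read ratio was 7.03 (5.82 to 8.54) and the log2 ratio 2.74. Unlike the enzymes, Slpi was thus well above 1 FPKM in the healthy library. The summed level of Elane, Prtn3, Ctsg and Prss57 was 0.134 times that of Serpinb1a and Slpi in healthy (2.37 and 17.8 FPKM) and 5.24 times in leukemia (794 and 152 FPKM).

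The cystatins, which block cysteine proteases, were near even. Cst7, encoding cystatin F, which enters granules and lysosomes and inhibits cathepsin C, was at 64.4 FPKM (557 reads) in healthy and 93.9 FPKM (810 reads) in leukemia. The read ratio was 1.46 (1.31 to 1.63) and the log2 ratio 0.54. Cstb, encoding the cytoplasmic inhibitor cystatin B, was at 41.2 FPKM (219 reads) and 49.8 FPKM (264 reads), with a read ratio of 1.21 (1.01 to 1.45) and a log2 ratio of 0.27. On a scale centred on T cell markers, which shifts every log2 ratio up by 0.42, Cst7 came to 0.95 and Cstb to 0.68, still under 2-fold. Slpi was the member nearest to 2-fold on the inside, at 2.74, and Cst7 on the outside, at 0.54.

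**Figure D3:**
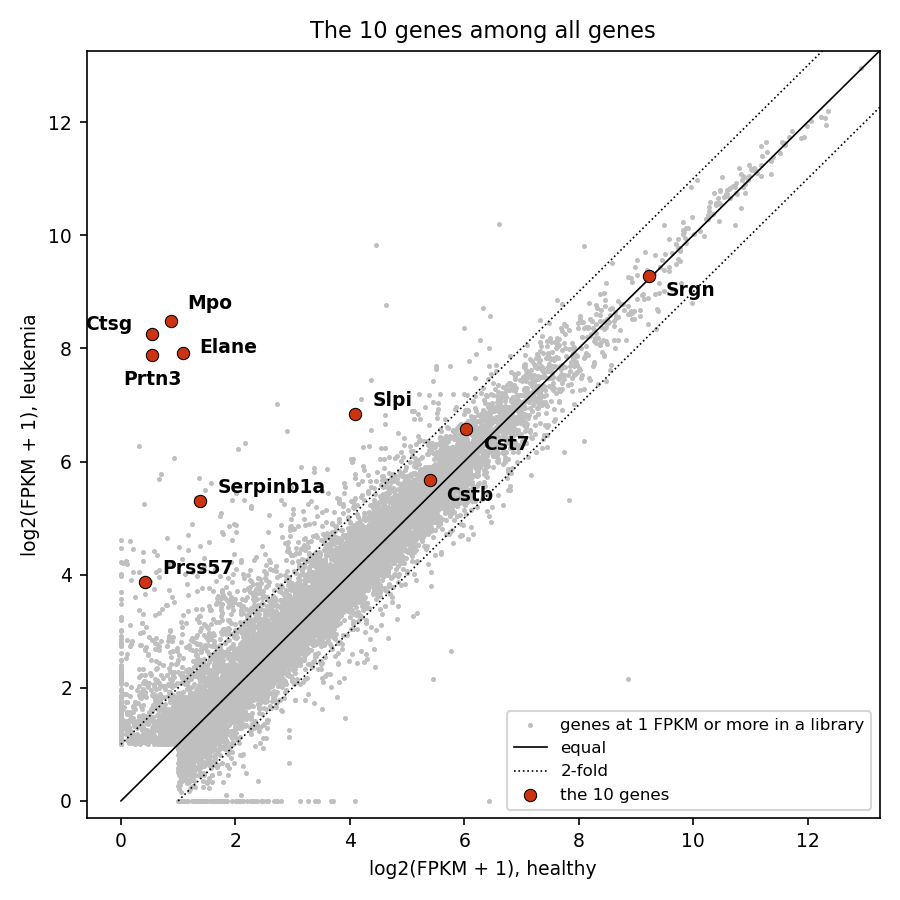
log2(FPKM + 1) in the leukemia library against the healthy library for the 13717 genes at 1 FPKM or more in a library (grey) and the 10 genes (red, named), with lines at equality and at 2-fold. Mpo, Ctsg, Elane and Prtn3 lie at the upper left away from the other genes, while Srgn, Cst7 and Cstb lie between the 2-fold lines.

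Other proteins of primary granules did not share the pattern of the main enzymes. Of 14 listed genes, 12 reached 1 FPKM, 2 were 2-fold higher and none lower, against 6.55% and 1.95% of all genes. The median log2 ratio of the 12 was 0.15. Gusb, the lysosomal beta-glucuronidase that also enters these granules, was at 15.9 and 53.7 FPKM (1.69), and the granule membrane protein gene Cd63 at 6.40 and 18.1 FPKM (1.36). Hexa, a lysosomal hexosaminidase gene, was at 40.4 and 77.5 FPKM (0.92). Ctsc, encoding cathepsin C, the enzyme that activates elastase, proteinase 3 and cathepsin G, was at 63.0 and 46.7 FPKM (-0.42), a read ratio of 0.743 (0.686 to 0.805). Bpi, for the bactericidal protein of primary granules, had 0 and 1 reads.

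The main enzymes also differed from their closest relatives. Leaving out the 4 members, 8 genes of the wider family of granule serine proteases reached 1 FPKM, with 3 higher, 1 lower and a median log2 ratio of -0.15. Of all genes, 6.55% were 2-fold higher and 1.95% lower. Mcpt8, a basophil protease gene, was at 2.04 and 12.1 FPKM (2.10), Prss34, also of basophils, at 1.09 and 3.52 FPKM (1.11), and Gzmk, for granzyme K of T cells, at 3.63 and 8.45 FPKM (1.03). Gzmm, for granzyme M, was at 3.36 and 0.78 FPKM (-1.29), on 31 and 9 reads. Gzmb, for granzyme B, was at 25.1 and 19.4 FPKM (-0.35). These 5 were named after their values were seen. Of the other heme peroxidases, Lpo was at 2.46 and 3.22 FPKM (0.29), and Epx, of eosinophils, had 0 and 3 reads.

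Later granules of neutrophils are made after the primary ones. The list used for them has 19 genes, not all of which encode granule proteins (S100a8 and Padi4, for example, do not). Of the 19, 17 were listed and 9 reached 1 FPKM, of which 6 were 2-fold higher and none lower (median log2 ratio 1.04). With no filter the median was 0.44, and with genes at 0 in healthy set to their bound it was 1.13. All 6 higher genes were under 1 FPKM in healthy, so they passed the filter only through the leukemia library. Of all genes, 6.55% were 2-fold higher. Pglyrp1, for a peptidoglycan recognition protein, had the highest level of the list in both libraries, at 72.2 and 78.05 FPKM (0.11), of summed levels of 78.5 and 173 FPKM. Hp, for haptoglobin, was at 0.25 FPKM (3 reads) and 76.8 FPKM (927 reads), a read ratio of 310 (106 to 1507). Fcnb, encoding ficolin B, was listed at 0 in healthy and at 3.22 FPKM (30 reads) in leukemia. Against a floor of 3 reads in the healthy library it was at least 10.0-fold higher. Padi4, which citrullinates histones, was at 0.69 and 3.03 FPKM (1.25). S100a8, for a calprotectin subunit, had 1 and 6 reads, a ratio of 6.02 (0.731 to 277). It was no longer 2-fold higher with TMM scaling (0.59), nor was Mmp8, a collagenase gene with 0 and 23 reads (1.04), after rescaling without markers of other cells (0.997). Ltf, for lactoferrin, had 0 and 1 reads, and Ngp had 2 in each library. Pglyrp1, Ltf and Ngp were named after their values were seen.

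Other inhibitors of the same families differed from one family to the next. Of the 6 other serpins at 1 FPKM or more, 0 were 2-fold higher and 0 lower, against 6.55% and 1.95% of all genes. Their median was 0.00. They included Serpinb6a, whose product inhibits cathepsin G (46.6 and 31.6 FPKM, -0.55), Serping1, for the complement C1 inhibitor (1.95 and 3.06 FPKM, 0.46), and Serpina3f (5.80 and 8.06 FPKM, 0.41), which has close copies. Apart from Cst7 and Cstb, 1 cystatin reached 1 FPKM, and it was 2-fold higher: Cst3, for secreted cystatin C, at 85.8 and 205 FPKM (1.24). The stefin A genes of neutrophils had at most 3 reads or were not listed. Of the other genes with WAP domains, the fold that Slpi is built of, Wfdc17 was at 2.69 and 6.14 FPKM (0.95) and Wfdc2 at 2.29 and 3.28 FPKM (0.38). Wfdc17 passed 2-fold when centred on T cell markers (1.37) and with a pseudocount of 0.1 FPKM (1.16).

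The list of cathepsins and legumain holds the cysteine proteases that cystatins inhibit and also aspartic and serine enzymes. It had 3 of 13 genes higher and none lower, and their median was -0.29. Of all genes, 6.55% were 2-fold higher and 1.95% lower. Ctsh was at 15.6 and 65.3 FPKM, Ctsz at 62.6 and 145 FPKM (1.20) and Ctse, an aspartic protease, at 10.9 and 24.3 FPKM (1.09). Ctsa, a serine carboxypeptidase, was at 94.2 and 142 FPKM (0.58). The summed level of the list was 1126 FPKM in healthy and 1125 FPKM in leukemia. Genes that sort or release granules had 2 of 20 higher and none lower, and their median was 0.06: Ap3s1, a subunit of the adaptor complex AP-3 (39.0 and 124 FPKM, 1.64), and G6pc3, a phosphatase whose loss causes neutropenia (8.64 and 22.8 FPKM, 1.31). Rab27a, a release GTPase, was at 35.2 and 51.4 FPKM (0.53) and Hps1 at 12.8 and 18.5 FPKM (0.49).

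**Figure D4:**
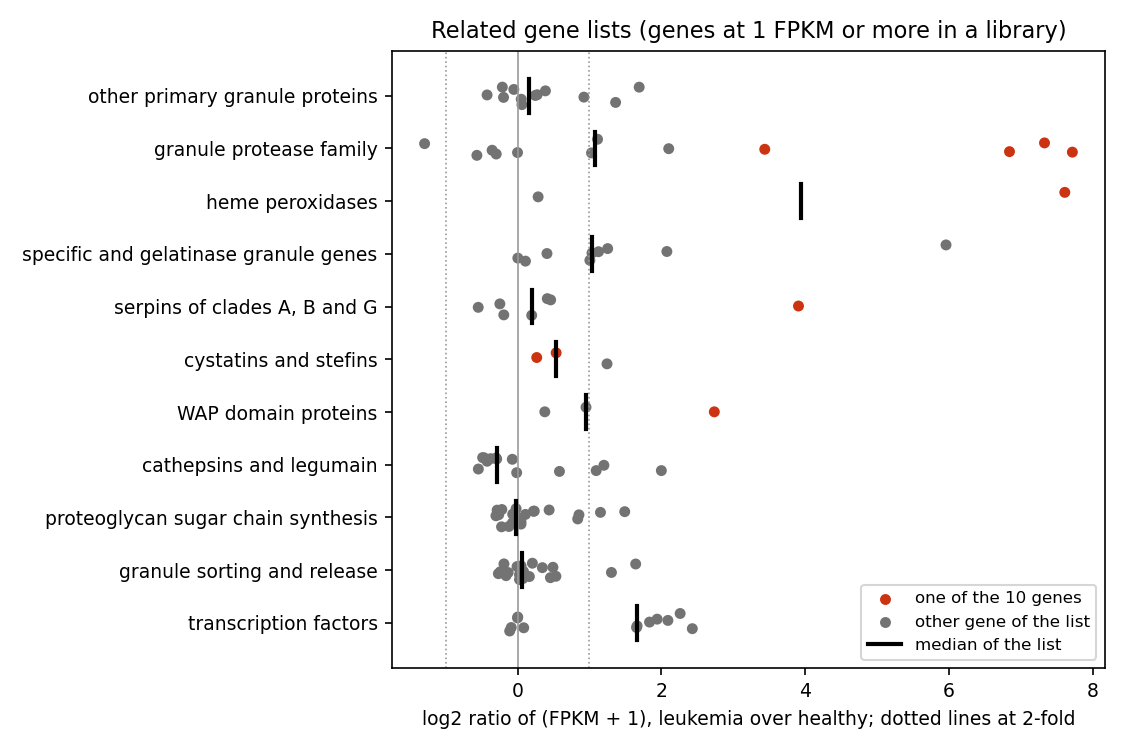
log2 ratio of (FPKM + 1), leukemia over healthy, for genes at 1 FPKM or more in 11 related lists (rows), with the 10 members in red where a list holds them and a black bar at the list's median. Outside the members, Hp at 5.96 is the point farthest to the right, and the medians of the cathepsin, sugar chain and sorting lists lie between -0.29 and 0.06.

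Of 12 transcription factors that act on primary granule genes, 7 were 2-fold higher and none lower, against 6.55% and 1.95% of all genes. Of the 7, Cebpe and Gfi1b were at 0 in healthy and passed the filter only through the leukemia library. The median log2 ratio of the 12 was 1.66, or 1.80 with genes at 0 in healthy set to their bound. Spi1, encoding PU.1, whose core motif was searched for above, was at 9.40 and 55.1 FPKM (2.43). Myb, a regulator of progenitors, was at 11.1 and 57.1 FPKM (2.26), Cebpa, which drives granulocyte development, at 5.91 and 28.45 FPKM (2.09), and Irf8, which favours monocytes over granulocytes, at 19.1 and 76.2 FPKM (1.94). Cebpe, needed for the later granules, was listed at 0 in healthy and had 28 reads in the leukemia library, at least 9.37-fold above the floor of 3 reads. Runx1 (13.95 and 14.9 FPKM, 0.09) and Gfi1 (20.45 and 18.9 FPKM, -0.11) were near even. Cebpe, Gfi1b, Runx1 and Gfi1 were named after their values were seen.

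On the chromosome, most genes beside the members that reached 1 FPKM were under 2-fold. RefSeq places Prss57, Prtn3 and Elane on chromosome 10 in that order, Mpo on chromosome 11 and Ctsg on chromosome 14. Over the 3 listed genes on each side of every member, 54 genes in all, 40 reached 1 FPKM, 5 were 2-fold higher and none lower, and their median was 0.04. Of all genes, 6.55% were 2-fold higher and 1.95% lower. Next to Elane, Cfd, for complement factor D, a protease of the same family, had 6 and 8 reads. Lpo beside Mpo, and the granzyme genes beside Ctsg, were likewise under 2-fold. The 5 higher neighbours were Palm beside Prss57 (1.24 and 24.9 FPKM, 3.53), Fstl3 on its other side (0.34 and 3.68 FPKM, 1.80), Plppr3 near Prtn3 (8.19 and 30.5 FPKM, 1.78), Mcpt8 beside Ctsg (2.10) and Tspoap1 near Mpo (2.09 and 6.62 FPKM, 1.30). Palm and Fstl3 overlap Prss57 in the RefSeq annotation. No neighbour of Srgn, Cst7, Serpinb1a, Slpi or Cstb was past 2-fold on the log2(FPKM + 1) scale. Syde1 near Cstb was at 2.53 and 1.05 FPKM (-0.78). By reads its ratio was 0.415 (0.264 to 0.638). Its log2 ratio passed 2-fold lower with a pseudocount of 0.1 FPKM (-1.19), in TPM and with TMM scaling (-1.08).

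**Figure D5:**
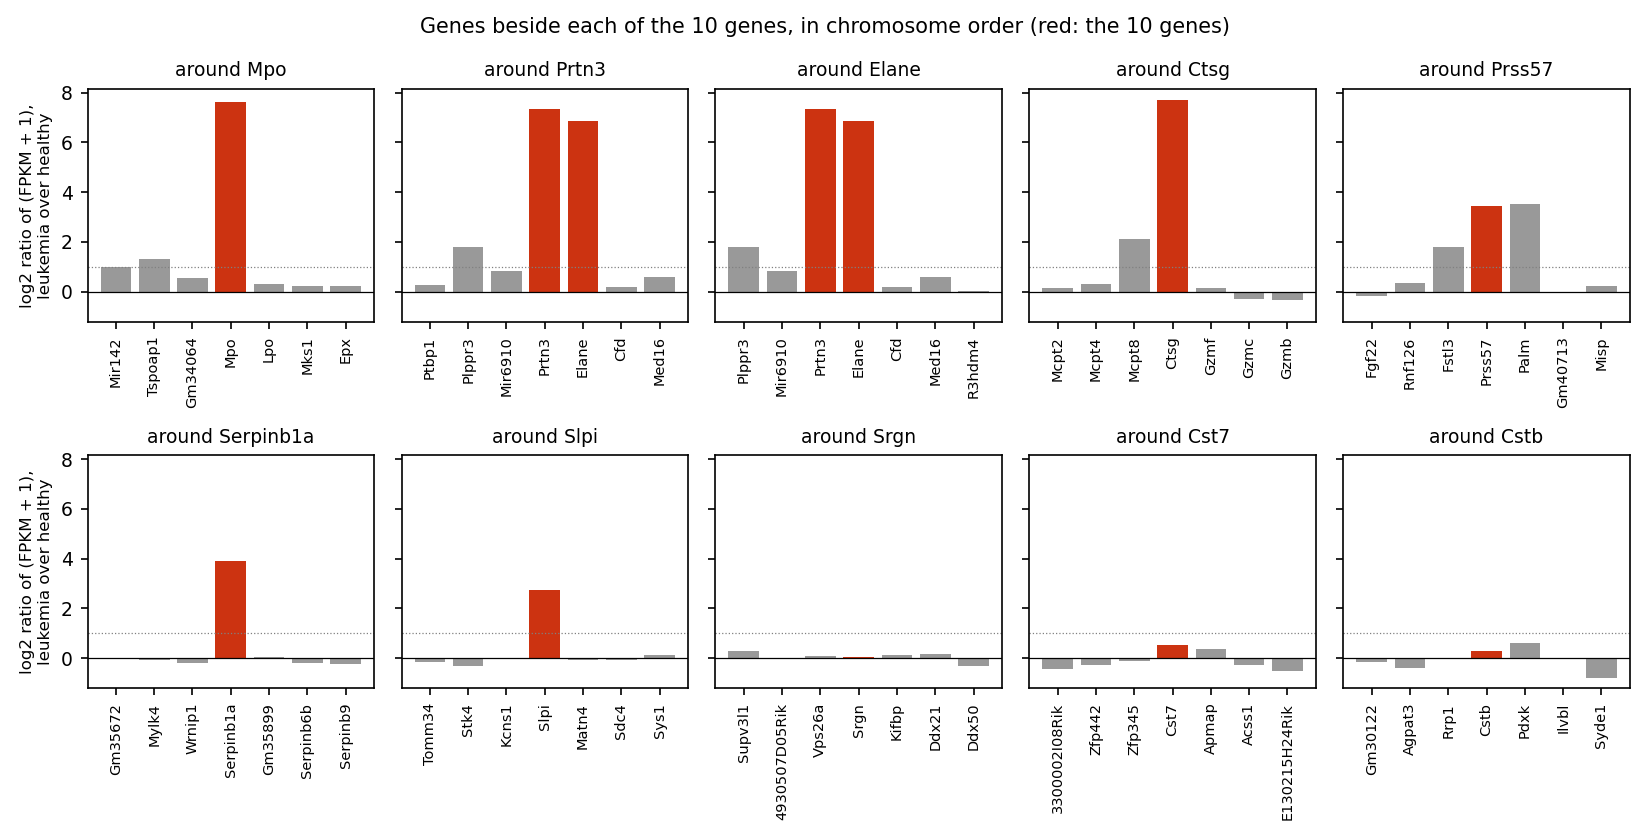
log2 ratio of (FPKM + 1), leukemia over healthy, for each of the 10 genes (red) and the 3 listed genes on each side in chromosome order (grey), with a dotted line at 2-fold; genes under 1 FPKM in both libraries are drawn too. Prtn3 and Elane stand side by side at 7.33 and 6.84, while Cfd next to them is at 0.19, and beside Prss57 Palm is at 3.53.

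The genes most like Mpo, Elane, Prtn3 and Ctsg were found by the distance of log2(FPKM + 1) from the mean of those genes over the 2 libraries. The nearest 5 were Hp (distance 1.90), Rab44, a GTPase gene (2.08), Cd24a (2.27), the progenitor factor gene Lmo2 (2.29) and the hexokinase gene Hk3 (2.32). Rab44 was at 0.90 and 65.8 FPKM, and Cd24a at 5.65 and 129 FPKM. Genes without a symbol, predicted genes, microRNAs and small nucleolar RNAs were left out of this ranking. The 4 genes themselves lay within 0.39 of their mean, a closeness that is partly built in because they set that mean. Serpinb1a was the next member at 2.91. With 2 libraries, this likeness says only that the levels were alike.

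Markers of other cells did not all move in the same direction. Of the 12 myeloid progenitor or promyelocyte markers, 11 reached 1 FPKM, and 9 were 2-fold higher and none lower, against 6.55% of all genes higher. Of the 9, all but Myb and Cebpa were under 1 FPKM in healthy and passed the filter only through the leukemia library. The summed level of the list was 99.3 FPKM in healthy and 287 FPKM in leukemia. Igfbp4 made up most of the healthy sum and was near even, at 76.9 and 78.0 FPKM (0.02). Ms4a3 and Fcnb of this list were at 0 in healthy. Cd34 was at 0.59 and 50.6 FPKM and Ms4a3, a gene of granulocyte and monocyte progenitors named after its value was seen, at 0 and 17.7 FPKM. Of the late neutrophil markers, 4 reached 1 FPKM, with 2 higher, none lower and a median log2 ratio of 0.62. The 2 higher ones, S100a8 and Mmp8, passed the filter only through the leukemia library. The late neutrophil list summed to 13.7 and 15.9 FPKM, of which Cxcr2 gave 10.6 and 8.40 FPKM, and Camp was not listed in either table. The Treg markers had a median log2 ratio of -0.54 and the T cell markers of -0.42, with none of them 2-fold lower. Their part in the levels of the 10 genes was not tested.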

How the data were processed

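RNA of sorted splenic Treg cells was made into libraries for BGIseq-500 sequencing from 1 µg of total RNA per library, per the labels' protocols. Bowtie2 2.2.5 and RSEM were used, per the submitters' processing notes; RSEM's version, the genome build and the annotation were not given in the sources used here. The deposited tables give an expected count per gene, an estimate that need not be whole, and FPKM (with 2 decimals in the values), per the file headers; a deposited gene length column holds other values, used only to compare isoform weighting. Samples were grouped by disease state. Of 23248 NCBI Gene IDs, 21713 matched a RefSeq symbol by ID, 14 by transcript accession, and 1521 had none. A gene missing from 1 table was set to 0 there.

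Log2 ratios used a pseudocount of 1 FPKM and a filter of 1 FPKM in either library. Counts were rounded for exact intervals, and the level of 0 reads was set to 3 reads for bounds. With 1 library per group no test was possible. The members, the 11 gene lists and the 12 marker lists were chosen with earlier results of these data known. Named genes were the members, up to 4 genes per list by absolute log2 ratio, all Treg markers, up to 4 of each other marker list by leukemia FPKM, neighbours at 1 FPKM or more and the 5 genes nearest to the main enzymes; not all are printed. The ratio and the call rule were tested on simulated data. Alternatives were a pseudocount of 0.1 FPKM, no filter or 5 FPKM, TPM, median ratio, TMM in edgeR 4.0.16 on counts, centring on T cell markers, and rescaling without markers of other cells. Python 3.11.15 with pandas 2.3.3 and scipy 1.17.1 was used.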

Additional observations from a re-analysis of the deposited data

How the results depend on the processing

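Of the 10 members, 7 were 2-fold higher and 0 lower under all 8 alternatives. Log2 ratios ranged from 7.64 to 9.11 for Ctsg, 7.54 to 8.58 for Mpo, 7.25 to 8.71 for Prtn3, 6.76 to 7.63 for Elane, 3.37 to 4.95 for Prss57, 3.83 to 4.48 for Serpinb1a, 2.66 to 3.15 for Slpi, 0.46 to 0.95 for Cst7, 0.19 to 0.68 for Cstb and -0.02 to 0.47 for Srgn. Counts over all genes moved more. The 898 higher genes became 1890 when centred on T cell markers and 590 with a filter of 5 FPKM. The 267 lower genes became 493 with a pseudocount of 0.1 FPKM, 135 with the filter of 5 FPKM, 414 in TPM and 106 when centred. Centring moved the median of all genes from 0.02 to 0.44 and the share of higher genes among those past 2-fold from 77.1% to 94.7%. Among the lists, the 1 lower granule protease became 0 with the filter of 5 FPKM, and 0 when centred. The 6 higher genes of the later granule list became 1 with that filter, and the 2 higher sugar chain genes became 1 with it and 4 when centred. The 1 higher WAP gene became 2 with a pseudocount of 0.1 FPKM and when centred. These moves follow from fewer genes passing for the filter and from the shifted scale for centring and TPM. TPM moved the median of all genes from 0.02 to -0.05. With the smaller pseudocount, differences between low values are shrunk less. Of 1118 other values under the alternatives, 30 crossed 2-fold and 0 called values changed sign. The 4 to 17 healthy reads of the main enzymes limit the precision of their ratios. No paired analysis was possible because each group holds 1 library.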

Other observations

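Markers of basophils, mast cells and eosinophils were higher in the leukemia library as a list, with summed levels of 7.90 and 51.8 FPKM. Of the 7 genes at 1 FPKM or more, 5 were 2-fold higher and none lower, against 6.55% and 1.95% of all genes. Cpa3, a mast cell carboxypeptidase gene also made by progenitors, was at 0.54 and 19.4 FPKM (log2 ratio 3.73), and Gata2, a progenitor and mast cell factor, at 0.72 and 9.98 FPKM (2.67). Both were under 1 FPKM in healthy and passed the filter only through the leukemia library. Among monocyte markers, 4 of 8 were 2-fold higher, 4 under 2-fold and none lower, with log2 ratios from -0.64 to 5.08. The lowest was Csf1r, at 82.05 and 52.35 FPKM, named after its value was seen. The summed level of the list was 222 and 773 FPKM, of which Ly6c2 gave 23.7 and 437 FPKM. Of the 10 macrophage markers, 5 were 2-fold lower, against 1.95% of all genes. None was 2-fold higher, and their log2 ratios ran from -1.39 to 0.79.

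The other marker lists had medians nearer to 0 than these. As above, 6.55% of all genes were 2-fold higher and 1.95% lower. Of the markers of natural killer and cytotoxic cells, 0 of 10 passed 2-fold in either direction, with a median of -0.12, and Nkg7, a cytotoxic granule gene, was at 16.4 and 23.7 FPKM (0.50). B cell markers had 0 of 3 past 2-fold (median 0.24), megakaryocyte and platelet markers 0 of 4 (-0.35), and erythroid markers 2 of 6 higher (-0.04). Dendritic cell markers had 1 of 5 higher (-0.18), and their summed levels were 9.24 and 24.8 FPKM. The higher gene was Flt3, a receptor that progenitors also carry, at 0.31 and 17.8 FPKM. It passed the filter only through the leukemia library.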
